A study of Saccharomyces cerevisiae with 64 samples.

Results

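Where replication began along the genome of budding yeast, Saccharomyces cerevisiae, was compared between cells that lack both forkhead genes, FKH1 and FKH2, and control cells, both held in hydroxyurea (HU). The double mutant carried the alleles fkh1delta and fkh2delta, a replacement of ARS501 by ARS305 (ars501delta::ARS305) and the galactose promoter without a gene (pGAL). The control, called no OE in the labels for no overexpression, was wild type with the same empty promoter (WT pGAL). Shown beside them was the same double mutant with FKH1 expressed from the galactose promoter (pGAL-Fkh1), so that Fkh2 was still missing. Together the double mutant and no OE made up 10 of the 64 samples of the series: 2 immunoprecipitated (IP) and 2 Input libraries of the double mutant, and 3 and 3 of no OE. The double mutant with Fkh1 overexpression (Fkh1 OE) added 4 samples. For all of them growth was at 25 °C, with a G1 arrest of 3 h in 7.5 nM α-factor, then 2 h of induction in 2% galactose, and a release of 60 min into 0.2 M HU with 400 µg/mL bromodeoxyuridine (BrdU). BrdU is a thymidine analogue, so that newly made DNA can be pulled down with an antibody and sequenced. The number of clones behind each strain is not stated in the labels.

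Replication starts at origins, which are loaded with helicase in G1 and fire at different times in S phase. Initiation factors are in short supply, and origins that attract them early fire early. Fkh1 and Fkh2 are transcription factors that also bind beside many early origins and help to advance them, while origins beside centromeres are advanced by a separate route through the kinetochore. HU depletes nucleotides, slows forks close to the origins that have fired, and activates the checkpoint kinase Rad53, which holds back origins that have not.

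Each strain was represented by 1 value per 50 bp bin that combined its libraries, so no standard deviation, n or p-value can be given for any value below. Each table was on its own scale. Values were therefore turned into shares of the column's total over 14 chromosomes, in ppm. Chromosomes III and V, whose coordinates differ in the double mutant's table, were left out, as were the ribosomal DNA and the mitochondrial genome. A share is a relative quantity: a rise at one place lowers the share elsewhere, and a change in the total amount of new DNA cannot be seen in it. A tile or window was called when its share differed by at least 2-fold, after adding 0.1 of the mean share to both values. This addition (18.9 ppm for a 2 kb window, against 189 ppm for an equal share) makes the folds of weak windows smaller than the ratio of the printed shares. The values behind a fold at the edge of the rule were close: the peak beside MNN4 was called higher at 2.05-fold (187 to 402 ppm) and that beside TOP1 was not at 1.995-fold (106 to 231 ppm). On the other side, the peak beside ECM23 was called lower at 2.002-fold (831 to 406 ppm) and that beside YGR109W-B was not at 1.87-fold (818 to 429 ppm).

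The columns matched their labels at the deleted genes. All 28 bins inside FKH1 (R64, chromosome IX 100781 to 102235) were listed at 0 in the double mutant, and 0 of 28 in no OE and in the double mutant with Fkh1 OE. Inside FKH2 (chromosome XIV 495701 to 498289), 50 of 51 bins were listed at 0 in the double mutant, 51 of 51 with Fkh1 OE and 0 of 51 in no OE. The level between origins, taken as the median of tiles further than 10 kb from any peak, made up a like part of both columns compared: 25.6% of the total in no OE and 25.5% in the double mutant. Double mutant and no OE stand in different tables, and the double mutant also differs by the replaced origin, so these differences and the loss of the forkhead genes cannot be told apart from the 2 columns alone.

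In no OE the BrdU signal was concentrated on few places, and in the double mutant it was spread over many more. The top 1% of the 10592 measured 1 kb tiles held 34.0% of the signal in no OE and 21.2% in the double mutant. To hold 50% of the signal took 204 tiles in no OE and 571 in the double mutant. Tiles above 3 times the level between origins numbered 1000 (9.44%) in no OE and 2253 (21.3%) in the double mutant. With Fkh1 OE in the double mutant the corresponding values were 27.8% for the top 1%, 380 tiles and 1248 tiles (11.8%), between the other two on each measure. Against no OE, 1776 tiles were at least 2-fold higher in the double mutant (16.8%) and 389 at least 2-fold lower (3.67%). Ranks of tiles were related only in part, with Spearman's rho of 0.512 over the 10592 tiles, a description of tiles that share a library and neighbours. Tile ranks differed between control columns too: rho was 0.294 between no OE and the control of the RNR3 experiment. The level between origins made up 96.1% of that control's column. The most labelled tiles were partly different ones: of the top 5% (529 tiles) of each column, 291 were shared by no OE and the double mutant (55.0%), against 438 shared by no OE and the double mutant with Fkh1 OE (82.8%). No OE and the RNR3 control shared 379 (71.6%). Few top tiles were low in the other column. Those of no OE had a median percentile of 95.7 in the double mutant, with 4 of 529 below its median. Those of the double mutant had a median percentile of 95.6 in no OE, with 20 of 529 below its median.

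Origins were followed through peaks, local maxima at least 3 times the genome's median and at least 5 kb apart. Peaks were found in the mean of the double mutant's and the control's shares. At this spacing a weak peak can lie in the flank of a strong one, so a peak need not be a separate origin. Of 311 peaks, 303 had enough measured bins, and each was measured over 2 kb. In the double mutant 155 of them were at least 2-fold higher (51.2%) and 59 at least 2-fold lower (19.5%). Both sets were chosen by the ratio of the double mutant to no OE, so their opposite levels in those columns follow in part from the choice. The 59 lower peaks held 24.9% of all signal in no OE, 4.49% in the double mutant and 22.1% in the double mutant with Fkh1 OE. Their median height went from 80.7 times the level between origins in no OE to 11.1 times, and was 65.0 times with Fkh1 OE. The 155 higher peaks were weak in no OE, with a median of 1.42 times that level, and stood at 11.6 times in the double mutant and 2.65 times with Fkh1 OE. In a population of cells, an origin used by fewer cells and one used later by all of them cannot be told apart. At 10 times the level between origins or more stood 114 peaks in no OE and 176 in the double mutant, and 83 of these were in both sets. Over the 303 peaks Spearman's rho between no OE and the double mutant was 0.323, and that between no OE and the double mutant with Fkh1 OE 0.928. The peaks were found in the columns of no OE and the double mutant, so sites high in only 1 of them enter the list. This can lower the first value. Sites high with Fkh1 OE alone do not enter, which can raise the second. Over tiles, which need no such list, the 2 values were nearer, 0.512 and 0.624.

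**Figure D1:**
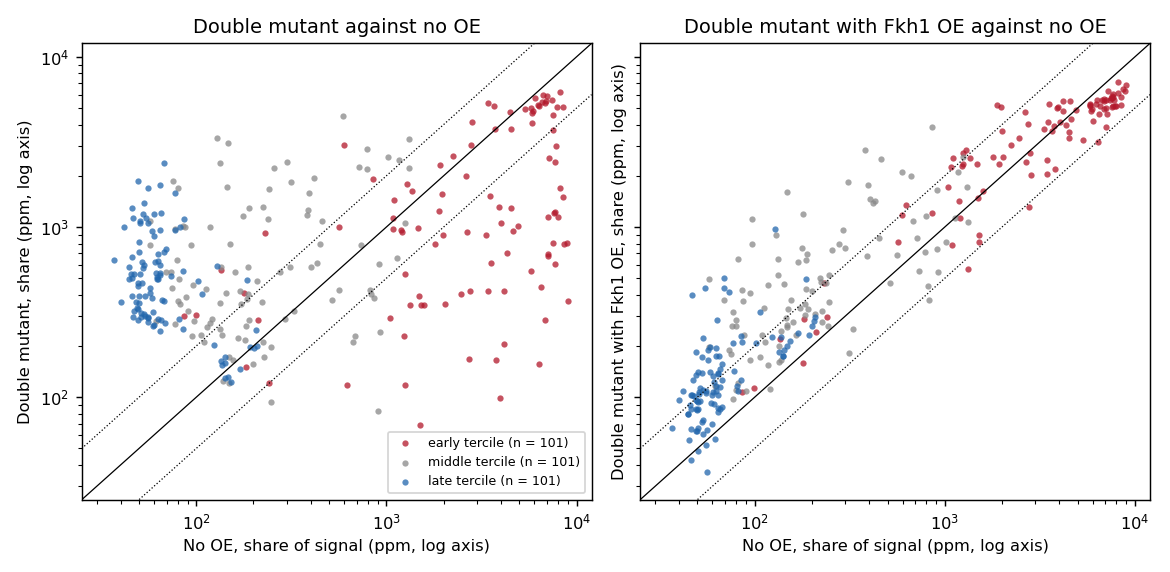
Share of signal in the 2 kb window of each of 303 peaks (ppm, log axes), coloured by timing class. No OE is on the x axis, and the double mutant (left) or the double mutant with Fkh1 OE (right) on the y axis. The solid line marks equality and the dotted lines 2-fold; many early peaks (red) lie below the lines and most late ones (blue) above them on the left, while the points lie closer to the line on the right.

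Early peaks and later ones differed in direction. Peaks were put into 3 classes of 101 by their share in a separate culture of no OE cells, labelled with BrdU from 20 to 35 min after release without HU, whose libraries are in neither column compared. Of the 101 early peaks, 52 fell and 7 rose, with a median of 3789 ppm in no OE, 1009 ppm in the double mutant and 3998 ppm with Fkh1 OE. Of the 101 middle peaks, 60 rose and 7 fell, with medians of 185, 496 and 458 ppm. Of the 101 late peaks, 88 rose and none fell, with medians of 59.4, 489 and 116 ppm. All early peaks together held 41.4% of the signal in no OE, 19.6% in the double mutant and 36.8% with Fkh1 OE, and all late peaks 0.745%, 5.98% and 1.61%.

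The counts of middle and late peaks depend on how peaks are found, since a peak that is strong in the double mutant alone enters the list through that column. With 158 peaks found instead in columns outside the comparison (the no OE pulses from 20 to 35 and 30 to 45 min and a further control, that of the RNR3 experiment), 58 fell (36.7%) and 27 rose (17.1%). Early peaks of this list fell as before, 34 of 53 with none rising and a median log2 fold of -1.75. In the double mutant the early peaks of this list had a median of 1317 ppm and the late ones 248 ppm, so the nearer early and late medians of the first list were not seen with it. Its middle peaks had a median of -0.20, with 10 rising and 20 falling, and its late peaks 0.39, with 17 rising and 4 falling. This second list was found in control cells alone, so peaks strong in the double mutant alone are left out, which favours falls. Early peaks fell with both lists, while the size of the late rise, and the direction of the middle class, were those of the list used.

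Tiles, which need no choice of peaks, showed the loss in the earliest regions as well, but gave another order for the rises. All tiles were sorted by their share in the 20 to 35 min pulse of no OE and cut into 10 equal classes. The share of tiles that rose went from 3.12% in the class with least pulse signal through 12.6% in the fifth to 36.7% in the ninth, so that rises were more frequent at tiles with more pulse signal, while among peaks they were most frequent in the late class. The tenth class, which holds the early origins themselves, had 29.7% of tiles lower and 20.2% higher. It held 71.9% of the signal in no OE, 45.7% in the double mutant and 57.5% with Fkh1 OE. The ninth class went the other way, from 5.76% in no OE to 15.1% in the double mutant and 11.3% with Fkh1 OE.

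**Figure D2:**
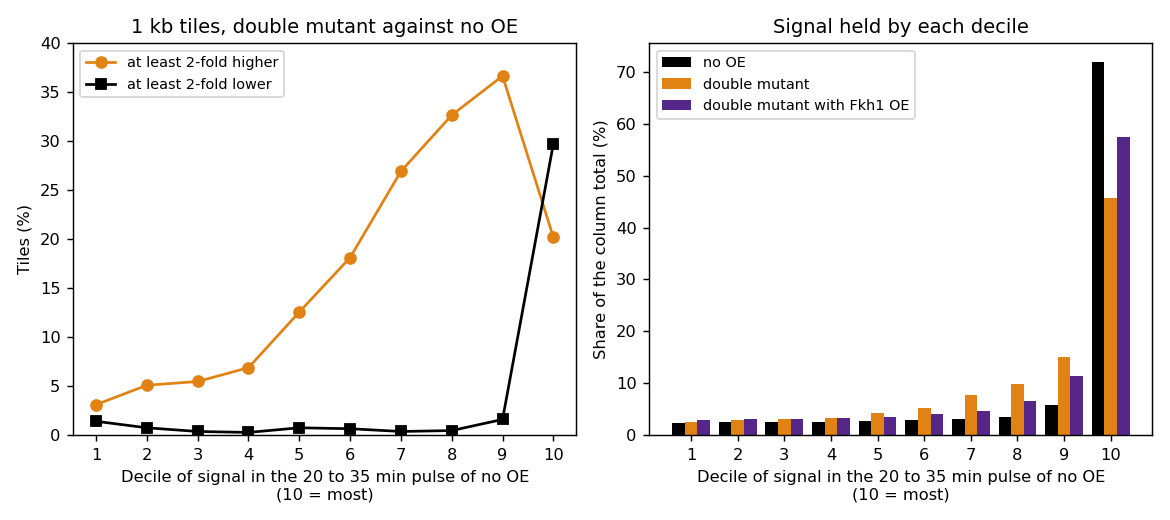
All 1 kb tiles in 10 equal classes of signal in the 20 to 35 min pulse of no OE. Left, the percentage of tiles at least 2-fold higher (circles) or lower (squares) in the double mutant; right, the percentage of each column's total held by each class, which falls from 71.9% to 45.7% in class 10 and rises from 5.76% to 15.1% in class 9.

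Among early peaks, the distance from the centromere went with the response. Of 32 early peaks within 20 kb of a centromere, 2 fell and 4 rose, and their median was 5892 ppm in no OE, 4894 ppm in the double mutant and 4951 ppm with Fkh1 OE. Between 20 and 50 kb, 2 of 7 fell: the peak beside CDC15, a mitotic exit kinase gene, 24.4 kb from its centromere (7099 to 1148 ppm), and that inside YOL024W (8613 to 795 ppm). Between 50 and 100 kb, 10 of 12 fell, and the median went from 4270 to 623 ppm and was 4479 ppm with Fkh1 OE. Over 100 kb away, 38 of 50 fell and 2 rose, with medians of 2649, 697 and 3724 ppm. The same split was present in the list of peaks found outside the comparison, in control cells alone. There 2 of 20 early peaks within 20 kb, 7 of 7 from 50 to 100 kb and 23 of 24 further away fell.

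**Figure D3:**
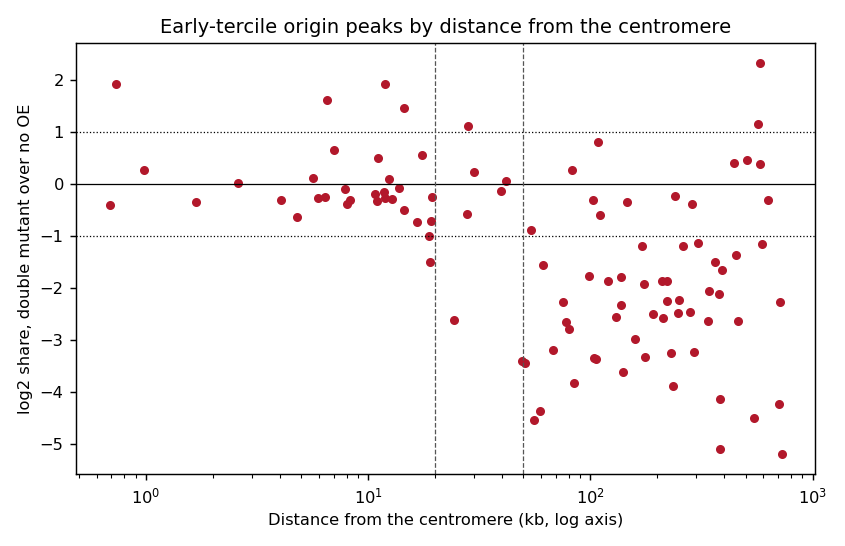
The log2 fold of the double mutant over no OE (y axis) at each of 101 early peaks, against the distance to the centromere in kb (log axis). Dashed lines mark 20 and 50 kb and dotted lines 2-fold; 2 of 32 peaks within 20 kb and 48 of 62 beyond 50 kb lie below the lower dotted line.

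The centromeres were also alike one by one. At 12 of the 14 centromeres, the strongest peak within 20 kb stayed within 2-fold of no OE. The exceptions were chromosome X, where the peak beside NOP9 went from 7198 to 2544 ppm (0.355 of no OE), and chromosome XIII, where the peak beside ANY1 went from 7556 to 3736 ppm (0.496). Both lie close to the outer limit of the class. The highest ratio was at SWM2 on chromosome XIV, 3435 ppm in no OE and 5371 ppm in the double mutant (1.56). As the early arms lost share, centromere peaks took the top ranks of the double mutant. Its 5 strongest peaks, picked after their values were seen, were all within 14 kb of a centromere: beside ECM9 (8199 ppm in no OE, 6250 ppm in the double mutant), SEC9, a t-SNARE gene of secretion (6705 and 5987 ppm), SAG1, the alpha-agglutinin gene (7023 and 5915 ppm), FAA3, a fatty acyl-CoA synthetase gene (6037 and 5723 ppm), and ECM15 (7415 and 5599 ppm). None of the 5 passed 2-fold, and each was a little lower in share than in no OE.

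A gene beside a peak only says where the peak is, and what the gene does is given to place it. Of the 5 strongest peaks of no OE, 4 fell and 1 near a centromere did not pass the rule. The strongest lay inside DAL2, the allantoicase gene of nitrogen use (chromosome IX 410726 to 412725), with 8992 ppm in no OE, 369 ppm in the double mutant and 6790 ppm with Fkh1 OE. It was 23.3-fold lower and went from rank 1 to rank 210 of the 303 peaks. The second was the origin ARS607, beside the noncoding gene RUF22 (chromosome VI 198276 to 200275), with 8860, 804 and 6292 ppm, 10.8-fold lower. The peak inside YOL024W (chromosome XV 276576 to 278575) had 8613, 795 and 6474 ppm, 10.6-fold lower. The 3 strongest peaks of no OE thus took ranks 210, 119 and 120 in the double mutant, though peaks picked at the top of a column have little room to rise. The peak beside MET5, a sulfite reductase gene, had 8488, 1495 and 5228 ppm, 5.62-fold lower. That beside HHF1, a histone H4 gene 16.7 kb from its centromere, had 8460, 5077 and 5848 ppm, 1.66-fold lower and not called.

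The 10 largest falls were all at early peaks over 50 kb from their centromere. A fall of this size needs a high share in no OE, so the choice favours early peaks. The largest was beside RDR1, a repressor of drug resistance genes (chromosome XV 1052726 to 1054725), with 6376 ppm in no OE, 156 ppm in the double mutant and 3170 ppm with Fkh1 OE, 36.5-fold lower. Beside EAP1, which encodes a protein that binds the cap-binding factor of translation (chromosome XI 54626 to 56625), the shares were 3959, 98.3 and 5078 ppm, 33.9-fold lower. Inside RCE1, the protease of prenylated proteins (chromosome XIII 814276 to 816275), they were 6844, 283 and 5687 ppm, 22.7-fold lower. In each case the double mutant alone was low and the other 2 columns were high. Beside HSP104, a protein disaggregase (chromosome XII 90376 to 92375), the shares were 3789, 165 and 2180 ppm. Beside HXT6, a hexose transporter (chromosome IV 1158276 to 1160275), they were 4165, 205 and 5491 ppm. These falls were 20.7-fold and 18.7-fold. The other falls of the list, 17.5-fold to 12.3-fold, were at YBR200W-A (1511, 68.4 and 896 ppm), YML119W (2730, 167 and 4059 ppm), the noncoding gene YNCM0007C (6488, 442 and 4631 ppm) and THS1, the threonyl-tRNA synthetase gene (7708, 609 and 5157 ppm). In 3 of the 10, EAP1, HXT6 and YML119W, the column with Fkh1 OE was above no OE, and in the other 7 it was below.

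The 10 largest rises were at peaks that stood at 0.949 to 3.06 times the level between origins in no OE. A low control value follows from the choice, since rises of this size need one. Beside YNL115C (chromosome XIV 411176 to 413175) the share was 67.7 ppm in no OE, 2374 ppm in the double mutant and 157 ppm with Fkh1 OE, 27.6-fold higher. Beside RAD53, the gene of the checkpoint kinase itself (chromosome XVI 260576 to 262575), it was 49.4, 1861 and 95.8 ppm, 27.5-fold higher. Beside PUP2, a proteasome subunit gene (chromosome VII 998626 to 1000625), it was 55.5, 1698 and 109 ppm, 23.1-fold higher. The control was thus at 1.02 to 1.40 times the level between origins at these peaks, and the double mutant at 35.3 to 49.3 times. Beside MTC2 (chromosome XI 256926 to 258925) the double mutant reached 3325 ppm from 129 ppm, and was at 903 ppm with Fkh1 OE. Beside EMP46, which encodes a cargo receptor of secretion (chromosome XII 288326 to 290325), it reached 3129 ppm from 148 ppm, and was at 267 ppm with Fkh1 OE. The MTC2 and EMP46 peaks had the highest shares among the 10 in the double mutant. The other rises, 21.6-fold to 17.6-fold, were at RGT2, a glucose sensor gene (64.1 to 1774 ppm), MLO50 (45.8 to 1288 ppm), SUR2, a sphingolipid hydroxylase gene (75.9 to 1876 ppm), SEC20, a SNARE gene (53.3 to 1389 ppm), and RAD30, the DNA polymerase eta gene (46.6 to 1137 ppm). All 10 lay between genes, but of all 155 higher peaks 46 had their centre inside a gene (29.7%). That share was between those of the 59 lower peaks (22.0%) and of the 89 that passed neither rule (37.1%).

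**Figure D4:**
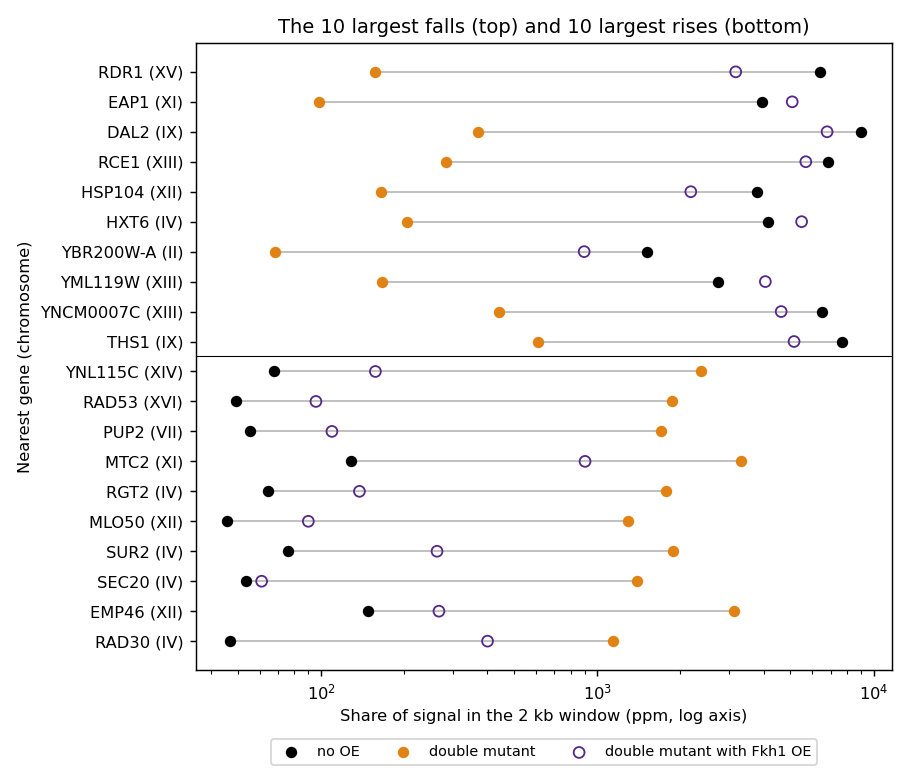
Share of signal in the 2 kb window (ppm, log axis) at the 10 peaks with the largest fall and the 10 with the largest rise, in no OE (black), the double mutant (orange) and the double mutant with Fkh1 OE (open circles). At the falls the open circles lie near the black ones; at all 10 rises they lie between black and orange.

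The origins looked up by name were 7, on chromosome IV (ARS416) and chromosome VI (ARS603 and ARS605 to ARS609). ARS416, beside TRP1, a tryptophan synthesis gene, and 12.8 kb from the centromere, had 5925 ppm in no OE, 4821 ppm in the double mutant and 4942 ppm with Fkh1 OE. ARS605, inside the meiotic gene MSH4 and 12.4 kb from the centromere, had 4493, 4755 and 3638 ppm. ARS606, beside DCV1 and 19.2 kb away, had 7500, 4583 and 5700 ppm, a ratio of 0.612. Along the same arm ARS607, 50.7 kb from the centromere, was the one that fell, 10.8-fold. The other 3 were not peaks. ARS603 had 67.1 ppm in no OE, 161 ppm in the double mutant and 103 ppm with Fkh1 OE, and rose 2.10-fold, from 1.39 to 3.35 times the level between origins. ARS608 had 92.0, 158 and 221 ppm (1.59-fold), and ARS609, the furthest from the centromere of the chromosome VI set, 58.0, 53.9 and 45.1 ppm (0.946).

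Some early peaks did not follow the rest. Of the 7 early peaks that rose, 5 were within 30 kb of a centromere and weak in no OE: beside YAR010C (2.73-fold), inside YNCB0007W (179 to 410 ppm), inside CFD1 (85.9 to 302 ppm), beside LSO1 (135 to 559 ppm) and inside YLR001C (231 to 927 ppm). The other 2 were on arms and of middle strength, beside YOR316C-A on chromosome XV, with 597 ppm in no OE, 3050 ppm in the double mutant and 1172 ppm with Fkh1 OE (4.99-fold), and beside YNCD0021C on chromosome IV (856, 1917 and 1204 ppm). Among the 5 weak ones, YAR010C, LSO1, YLR001C and CFD1 lie in the 5 to 8 kb flanks of the strong peaks beside SEN34, SAG1, CMS1 and FAA3. Their rises and the flank rises given below are thus in part the same signal. Of the 62 early peaks over 50 kb from a centromere, 12 stayed within 2-fold. The strongest of these was beside TDA6 on chromosome XVI, with 2638 ppm in no OE, 2008 ppm in the double mutant and 4741 ppm with Fkh1 OE, followed by GLC8 (1965, 1569 and 5070 ppm) and ASE1, a spindle midzone gene (1884, 1237 and 5222 ppm). At these 3 peaks the column with Fkh1 OE was above both others. The remaining 9 were beside PYC1, YLR227W-B, YLR257W, EXG1, ERB1 and YIP3 and inside YIL082W-A, ASF1 and MDM38, between 182 and 1357 ppm in no OE. These peaks are outside the rule for naming and were chosen after their values were seen. YAR010C, YIL082W-A, YLR227W-B and YGR109W-B belong to Ty retrotransposons, and HXT6 has a near-identical neighbour, so reads may have been placed there with uncertainty. The YIL082W-A peak also lies next to the peak beside THS1, which fell.

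Around centromeres most early peaks stayed within 2-fold at the centre, while most of their flanks rose. At the 32 early peaks within 20 kb of a centromere, the median over the first kb on both sides of the centre was 3231 ppm per kb in no OE and 2538 in the double mutant. From 3 to 5 kb away it was 170 in no OE, 445 in the double mutant and 148 with Fkh1 OE, with a median of 2.71-fold, and 21 of 32 flanks rose and none fell. From 5 to 8 kb it was 67.2, 212 and 91.0 ppm per kb (2.80-fold), and 22 of 32 rose. At the 62 early peaks over 50 kb from a centromere, the centre fell (1617 to 372 ppm per kb, 48 of 62 lower and 2 higher), while from 5 to 8 kb 3 rose and 6 fell, with medians of 37.7 and 42.8 ppm per kb. Of all 539 tiles within 20 kb of a centromere, 282 rose (52.3%) and 5 fell, beside 16.8% and 3.67% of all tiles. These tiles together held 27.8% of the signal in no OE, 32.8% in the double mutant and 21.0% with Fkh1 OE. At the 101 late peaks the double mutant was higher at the centre (29.9 to 257 ppm per kb) and from 3 to 5 kb (25.4 to 56.1 ppm per kb).

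**Figure D5:**
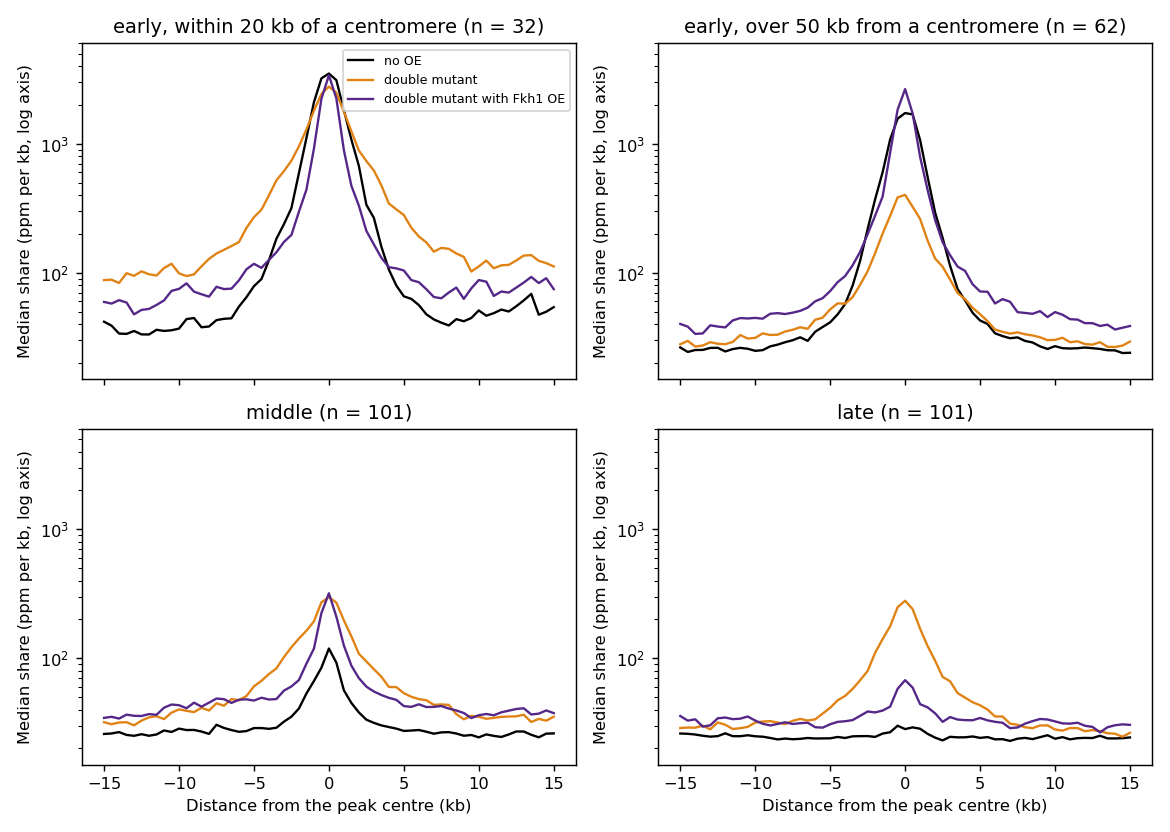
Median share (ppm per kb, log axis) around the centres of 4 sets of peaks, against the distance from the centre in kb, for no OE (black), the double mutant (orange) and the double mutant with Fkh1 OE (purple). In the top left panel the orange line is the lowest at the centre and lies above the others from 3 kb outward; in the top right panel it lies below them at the centre; in the lower panels it lies above no OE.

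Widths were compared at the peaks that were strong in both columns. Over the 83 peaks of at least 10 times the level between origins in both, the median width at 50% of the height was 2.4 kb in no OE, 2.6 kb in the double mutant and 1.45 kb with Fkh1 OE. The median ratio of the double mutant to no OE was 1.06, with the middle 50% of peaks from 0.961 to 1.22. Measured lower down, at 25% of the height, the median ratio was 1.32, and at 50% of the height with peaks from 5 times the level included it was 1.10. At 50% of the height, 52 of the 83 peaks were wider, 26 narrower and 5 equal. The summit lay within 500 bp of that in no OE at 73 of 83, with a median shift of 200 bp. Widths may carry smoothing by the authors that is not known here.

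Higher tiles lay in longer stretches than lower ones, with a median of 4 kb against 1 kb. They were also more numerous (16.8% against 3.67% of all tiles), and longer stretches can follow in part from that. The 1776 higher tiles made 356 runs, of which 164 were at least 5 kb long, and the longest spanned 23 kb of chromosome XI (410001 to 433000). The 389 lower tiles made 126 runs, 32 of them at least 5 kb, and the longest spanned 13 kb of chromosome IX (405001 to 418000), which holds the DAL2 peak. Shares also moved between chromosomes. Chromosome XI held 5.63% of the signal in no OE and 8.72% in the double mutant (1.55 times), with 15 of its 21 peaks higher and 2 lower. Chromosome XVI and chromosome XIV had ratios of 1.36 and 1.34. Chromosome X held 9.44% and 6.15% (0.651 times), with 9 of 20 peaks higher and 6 lower, and chromosome IX and chromosome VI had ratios of 0.764 and 0.797. Over all 303 peaks, 51.2% were higher and 19.5% lower. As for the spacing of peaks, 49 of 155 higher peaks (31.6%) lay within 50 kb of a lower peak, and 37 of 89 peaks that passed neither rule (41.6%).

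With Fkh1 OE, which stands in the same table and the same strain background, few peaks stood below no OE. Against no OE, 4 peaks fell (1.32%) and 85 rose (28.1%), and of tiles 1.37% fell and 6.42% rose. The median over the 59 was 3902 ppm in no OE, 532 ppm in the double mutant and 4059 ppm with Fkh1 OE. Over the 155 peaks that rose in the double mutant, the medians were 68.7, 559 and 165 ppm. Both comparisons use the same no OE column, which also chose these peaks, so the values are given side by side only.

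A second control, labelled no OE (WT), in HU and sequenced for the RNR3 experiment, gave a view of how far 2 control columns can differ. The level between origins made up 96.1% of that column, so raw shares are compressed there, and the level was subtracted from each column first, a step added after the data were seen. Against no OE, this control had 6 of 101 early peaks lower and 5 higher (median log2 fold 0.20), and of the 62 early peaks over 50 kb from a centromere 2 were lower and 4 higher. Measured in the same way, the double mutant against this control had 58 early peaks lower and 10 higher (median -1.50), and 51 of the 62 lower. Against no OE with the level subtracted, 53 early peaks were lower and 7 higher, and over all peaks 19.8% were lower and 53.1% higher. With the level subtracted, early falls were thus similar in number against either control. Weak peaks differed more between the controls: 46 of 101 late peaks were higher and 16 lower in the second control against no OE, with a median of 0.69, while the double mutant against the second control had 79 higher and 5 lower, with a median of 3.19. Over all 303 peaks, 33.7% were higher and 14.5% lower between the controls, and 45.2% and 25.4% between the double mutant and the second control. With nothing subtracted, 31.4% were higher and 38% lower between the controls. Against the second control the double mutant then had 182 peaks higher (60.1%) and 10 lower (3.3%), and the early median log2 fold was 1.46, the opposite direction.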

How the data were processed

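The deposited files gave BrdU signal, 1 value per 50 bp bin and group, in which the authors combined the libraries of a group; no source used here says how they were combined, smoothed and scaled. Bowtie2, SAMtools, bedtools and the genome build R64 are named, without roles, in the submitters' processing notes. The depth of each library is unknown, since columns of single libraries were not used; columns left without a sample numbered 0. Whether libraries of a group came from separate cultures is not stated.

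Bins listed at 0 in either compared column were treated as missing, which left 211512 of 222810 bins. A 1 kb tile needed 10 of its bins, and a 2 kb window 20. Peaks came from a 1 kb running mean. The ribosomal DNA (chromosome XII 451786 to 489469) was left out. Centromere peaks lay within 20 kb of a centromere and end peaks within 30 kb of a chromosome end. A peak was named by the gene that holds its centre or the nearest gene in RefSeq's R64 table. The rule named the 10 largest falls and rises, the 5 strongest peaks of no OE, 7 origins whose positions come from a list written from general knowledge, and FKH1 and FKH2. Calls were tested on simulated data with known folds put only at peaks strong in no OE, so changes at weak peaks were not simulated. Widths were tested on simulated peaks of known width. The members and lists were chosen with earlier results of these data known. Python 3.11.15, numpy 2.4.6, pandas 2.3.3 and matplotlib 3.10.9 were used.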

Additional observations from a re-analysis of the deposited data

How the results depend on the processing

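No paired analysis was possible because each column combines the libraries of its group; for the same reason no replicate could be left out. Of 102 summary values under the alternatives, 76 stayed close to those reported, 23 moved and 3 changed direction; of 318 values of named peaks, 249 stayed, 66 moved and 3 changed direction. Higher and lower tiles numbered 3553 and 681 with the level between origins subtracted, 877 and 179 with 2 kb tiles and 948 and 238 at 3-fold. Higher tiles numbered 1020 with a larger addition to the shares, and lower tiles 603 with a smaller one. The late median log2 fold was 4.28 with the level subtracted and 1.85 with the larger addition. With peaks found outside the comparison, 27 rose, and the early, middle and late medians were -1.75, -0.20 and 0.39; with peaks of at least 10 times the median, 51 rose, the medians were -1.92, -0.36 and 3.31, and that of end peaks was -2.43. With the RNR3 control as the control and nothing subtracted, 906 tiles were higher and 6725 lower, rho was 0.207, 10 peaks were lower, and the early, late and centromere medians were 1.46, 1.34 and 3.06; RUF22, YOL024W and MET5 were then at 0.32, 0.18 and 1.11 (log2). That column is 96.1% level between origins, which compresses its shares; with the level subtracted the early median was -1.50. End peaks have no value when chromosome ends are left out. Depth is unknown, so how far it limits the values, those of weak peaks above all, cannot be worked out here.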

Other observations

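Position in or between genes was measured for each peak. Of the 59 peaks that fell in the double mutant, 13 had their centre inside a gene (22.0%), against 46 of 155 that rose (29.7%) and 33 of 89 that passed neither rule (37.1%). Their median distance from the centromere was 192 kb, 226 kb and 74.5 kb. The 11 peaks near chromosome ends had medians of 200 ppm in no OE, 223 ppm in the double mutant and 323 ppm with Fkh1 OE, and 2 rose and 1 fell.

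Wild-type cells with Fkh1 OE, labelled from 20 to 35 min without HU, share no library with the HU columns. At the peaks that fell in the double mutant, the median ratio of Fkh1 OE to no OE in that pulse was 0.674. At peaks that passed neither rule it was 0.822, and at peaks that rose in the double mutant 2.22. The ratio went with timing class as well, at 0.728 over all early peaks and 2.54 over all late ones. Those classes were formed from the no OE pulse, the lower term of the ratio. Signal in that pulse was also more spread with Fkh1 OE, where the top 1% of tiles held 8.02%, against 12.8% in no OE. In HU, the medians in the wild type with Fkh1 OE and with Fkh2 OE were 4263 and 3167 ppm at the peaks that fell, and 250 and 212 ppm at those that rose.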
